A study of Homo sapiens with 6 samples.

Results

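The genes described here keep a cell's thiols reduced and remove peroxides: enzymes that make, recycle and use glutathione, the thioredoxin and peroxiredoxin proteins, catalase and a superoxide dismutase, proteins that handle heme and iron, and the regulators of this programme. A list of 57 such genes was taken by gene symbol from an expression array study, and all 57 had a probe on the array, among 30821 named genes in all. The cells were MDA-MB-231, an established human line from a triple-negative breast cancer, that is, one without hormone receptors or HER2 amplification. They had been exposed to riluzole at 25 µM (3 samples) or to its solvent DMSO as vehicle (3 samples), for 24 hours by the sample labels and overnight by the title of the series. Riluzole, used in amyotrophic lateral sclerosis, blocks sodium channels and dampens the release of glutamate, and the study asked which transcripts differ between the treatments. All samples are of this single line, and the labels do not say whether the numbered samples of a group were separate cultures, so the p-values reflect no more than the scatter among these 6 samples and part of it may be technical.

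Glutathione is a tripeptide of glutamate, cysteine and glycine. Its synthesis is limited by glutamate-cysteine ligase and by the supply of cysteine, which the cell imports as cystine or makes from methionine by transsulfuration. Peroxidases and transferases spend glutathione, glutathione reductase regenerates it with NADPH, and the thioredoxin and peroxiredoxin system removes peroxides in parallel. Many of these genes carry an antioxidant response element, a short DNA sequence bound by the transcription factor NRF2 (gene NFE2L2), which the adaptor KEAP1 holds in check by directing its degradation.

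The core letters of that element, TGACNNNGC on either strand, were looked for in RefSeq promoter windows of GRCh38.p14, each running from 250 bases before to 50 bases after a gene's start. Windows were found for 45 of the 57 genes, and 8 of these (17.8%) held the letters, against 13.6% of 27305 windows of all genes. The 8 genes were GCLM, CBS, GPX2, GSTA4, GSTM1, GSTO1, GSTP1 and TXNRD1. Printed below, 5′ to 3′ on the strand of the match and with the matching letters in capitals, are the stretches of 4 of them. GCLM was taken as a gene of glutathione synthesis and TXNRD1 as one of thioredoxin reduction. GSTP1 was the matched gene with the highest fold change, and GPX2 was one whose transcript was not detected.
GCLM (chr1:93909446-93909474, gene on the minus strand, match on the plus strand): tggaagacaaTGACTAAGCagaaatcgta
TXNRD1 (first of 2 matches, chr12:104215670-104215698, gene and match on the plus strand): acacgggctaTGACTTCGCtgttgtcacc
GSTP1 (chr11:67583736-67583764, gene and match on the plus strand): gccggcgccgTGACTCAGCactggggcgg
GPX2 (chr14:64942849-64942877, gene on the minus strand, match on the plus strand): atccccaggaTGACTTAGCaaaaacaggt
These matches are letters in a window and not shown binding sites. Genes without a window were not searched, and elements outside the windows would be missed. The 6 of the 8 genes that could be tested had log2 fold changes, riluzole over vehicle, between -0.16 (GCLM) and 0.22 (GSTP1). The letters TGATGNAA, the core of the element bound by ATF4 together with C/EBP factors, were in 1 of the 45 windows (2.22%), that of GPX8, and in 3.67% of all windows.

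Each sample was read on 1 single-colour Illumina bead array. The arrays detected between 20516 and 20959 of 47231 probes, and the correlation of 2 arrays over genes, which do not count as replicates, was 0.992 to 0.994 inside a group and 0.989 to 0.991 from group to group. Levels below are log2 of the background-corrected, quantile-normalized signal of a gene's brightest detected probe, so they can be compared between arrays for a gene but not between genes. A probe counted as detected on an array where its detection p was under 0.05. The line's label was checked on marker genes: VIM, the mesenchymal filament protein, averaged 15.43 ± 0.090 with riluzole and 15.47 ± 0.081 with vehicle (SD, n = 3 each), and the hormone receptors ESR1 and PGR and the luminal factor FOXA1 were detected on 0 of the 6 arrays. CDH1, the epithelial cadherin, was detected on 0 riluzole arrays and 1 vehicle array. The epithelial adhesion protein EPCAM was detected on all 6 and averaged 11.10 with riluzole and 11.16 with vehicle. Also detected on all 6 were GATA3 and ERBB3, 2 other luminal markers, whose levels averaged 6.96 and 6.99 with riluzole and 7.20 and 7.05 with vehicle. The arrays read RNA from whole cultures, so a change in some cells and a smaller change in all of them cannot be told apart.

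Of the 57 genes, 53 were detected on enough arrays to be tested, 52 of them on all 6 arrays. None of the 53 passed the threshold of limma's moderated test (0 higher and 0 lower, Benjamini-Hochberg adjusted p under 0.05 over all 14889 genes tested), where 1.18% of all tested genes did (0.752% higher and 0.430% lower with riluzole). The lowest adjusted p was 0.0943, for CTH. At an unadjusted limma p under 0.05 there were 8 members, 5 higher and 3 lower with riluzole, or 15.1%, near the 16.3% of all tested genes (8.87% higher and 7.45% lower). By sign 30 were positive and 23 negative, and the median log2 fold change was 0.028 for the members and 0.00075 for all tested genes. The values lay between -0.44 (GSR) and 0.56 (CTH), and 25 of the 53 were under 0.1 in size. A change of at least 0.3 was seen for 9 members (17.0%), beside 18.6% of all tested genes. The riluzole and vehicle arrays did not overlap in 13 members (24.5%), 8 higher and 5 lower, and in 22.7% of all tested genes (11.8% higher and 11.0% lower). Each of these shares was close to that of the whole array.

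The fitted 95% intervals describe each gene's brightest probe and the scatter among these arrays. For 44 of the 53 members (83.0%) the interval lay wholly inside a 1.5-fold change in either direction, and for 52 it lay inside 2-fold. The 1.5-fold bound was chosen after the values were seen. GCLM, GGT1 and GLRX2 count as inside it, though other detected probes of theirs gave log2 fold changes further from 0 (-0.39, 0.38 and -0.30). TXN and FTL also count as inside, with signals near the top of the scale. The intervals therefore do not bound every unseen difference. Over all tested genes 71.8% had intervals inside 1.5-fold. The members' median mean log2 signal was 11.71 and the median standard error of their log2 fold changes 0.112, against 8.858 and 0.129 over all tested genes, and the part of signal strength in this difference was not tested. The 9 members whose intervals reached past 1.5-fold were CTH, GPX8, GSTM3, GSTO2 and TXN2 on the high side and GSR, GGCT, HMOX1 and HMOX2 on the low side.

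**Figure D1:**
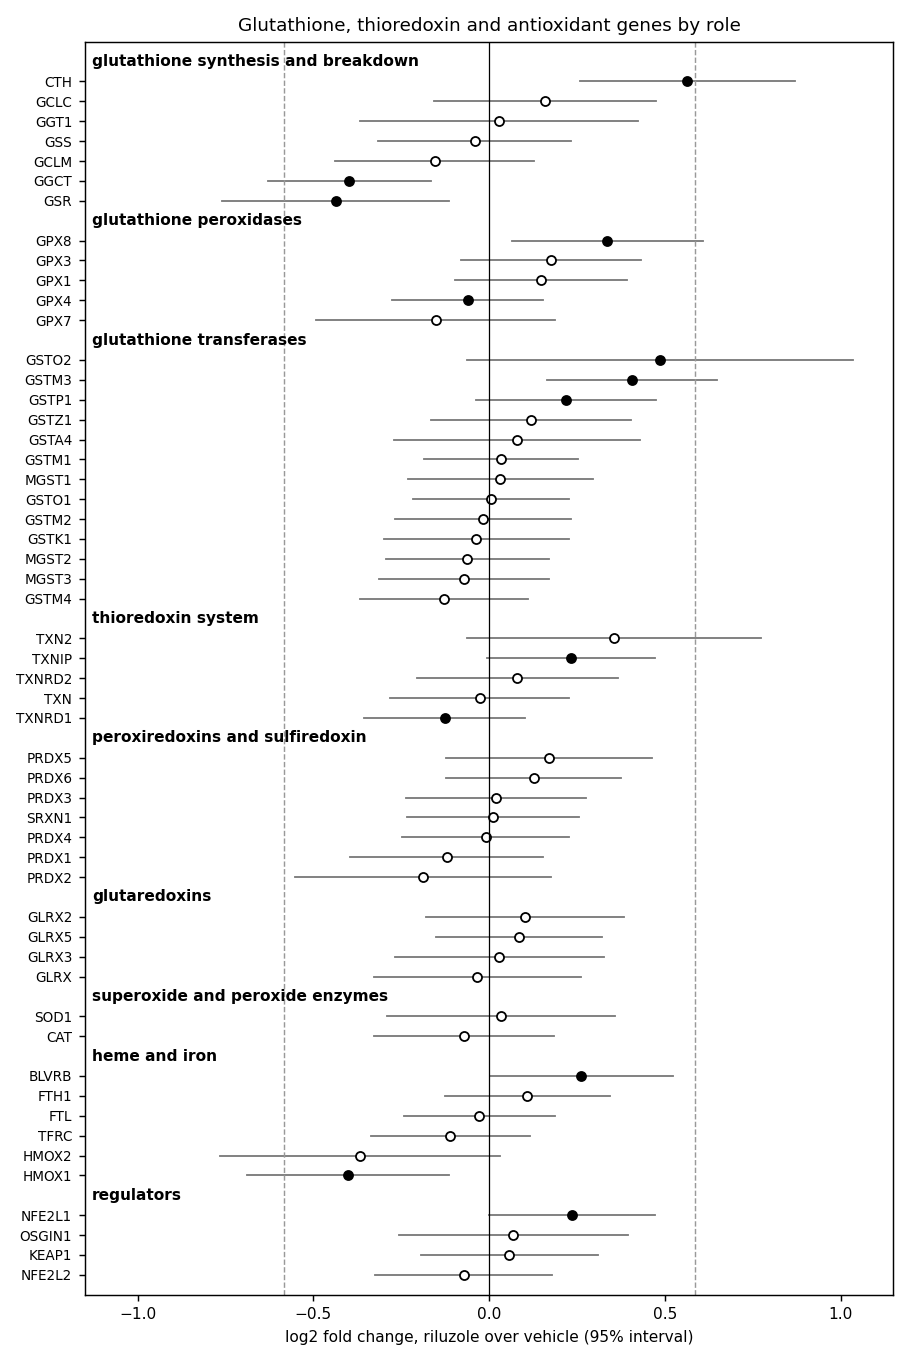
Log2 fold change (riluzole over vehicle, horizontal axis) of the 53 tested members, grouped by role, with 95% intervals of the limma fit as bars. Filled points mark the 13 members whose riluzole and vehicle arrays did not overlap, and the dashed lines mark a 1.5-fold change, inside which 44 intervals lie.

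Within glutathione synthesis and breakdown, 7 of 9 genes were tested and 0 passed, with 3 positive and 4 negative values. CTH, the cystathionine gamma-lyase that releases cysteine in the last step of transsulfuration, stood at 9.67, 9.91 and 9.54 on the riluzole arrays and at 9.00, 9.14 and 9.30 on the vehicle arrays. All riluzole arrays were above all vehicle arrays, and the difference was 1.48-fold (95% interval 1.20 to 1.83, adjusted p = 0.0943). Its other 2 detected probes gave log2 fold changes of 0.58 and 0.62, close to the 0.56 of the brightest one. In mammalian cells CTH is a known target of the stress factor ATF4. CBS, the enzyme that precedes it, was detected on 0 riluzole arrays and 1 vehicle array, with raw signals of 98.4, 113 and 114 with riluzole and 102, 114 and 236 with vehicle, where negative control probes averaged 107 to 111. Only vehicle array 3 stood well above those averages.

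Both subunits of glutamate-cysteine ligase had overlapping groups. GCLC, the catalytic subunit, was at 9.68, 9.56 and 9.83 with riluzole and at 9.45, 9.37 and 9.77 with vehicle (1.12-fold, 95% interval 0.898 to 1.39, adjusted p = 0.636). GCLM, the modifier subunit that raises its catalytic efficiency, was at 12.00, 12.30 and 11.97 with riluzole and at 12.27, 12.32 and 12.15 with vehicle. Riluzole array 2 lay among the vehicle arrays and the other 2 below them. The GCLM log2 fold change was -0.16 (95% interval -0.44 to 0.13, adjusted p = 0.594), and its dimmer probe gave -0.39 (adjusted p = 0.277 over probes). GSS, the synthetase that adds glycine, had a log2 fold change of -0.041 (-0.32 to 0.23).

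Below vehicle in every riluzole array were GGCT and GSR. GGCT, the gamma-glutamylcyclotransferase that breaks down gamma-glutamyl dipeptides, was at 10.85, 10.84 and 10.95 with riluzole and at 11.37, 11.22 and 11.25 with vehicle. Its arrays were tight within both groups, with SDs of 0.061 with riluzole and 0.083 with vehicle. The level was 1.32-fold lower with riluzole (95% interval 1.12 to 1.55), and the adjusted p of 0.109 missed the threshold. A second GGCT probe gave a log2 fold change of -0.34, beside -0.40. GSR, glutathione reductase, which returns oxidised glutathione to its reduced form, was at 9.08, 9.33 and 9.37 with riluzole and at 9.48, 9.72 and 9.89 with vehicle. The highest riluzole array was just under the lowest vehicle array, and the level was 1.35-fold lower (1.08 to 1.69, adjusted p = 0.178). Its other probe gave -0.47. GGT1, the surface transferase that starts the breakdown of extracellular glutathione, had a log2 fold change of 0.028 on its brightest probe and 0.12 and 0.38 on the others. Array probes may not tell GGT1 from its near-identical relatives. GGT7 was detected on 0 arrays under its current name, and of the 2 probes under its older name GGTL3 the one kept gave -0.29 (adjusted p = 0.652 over probes). That GGTL3 probe was near the detection limit, detected on 1 riluzole array and 2 vehicle arrays. Its raw signals were 127, 150 and 124 with riluzole and 175, 121 and 142 with vehicle.

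**Figure D2:**
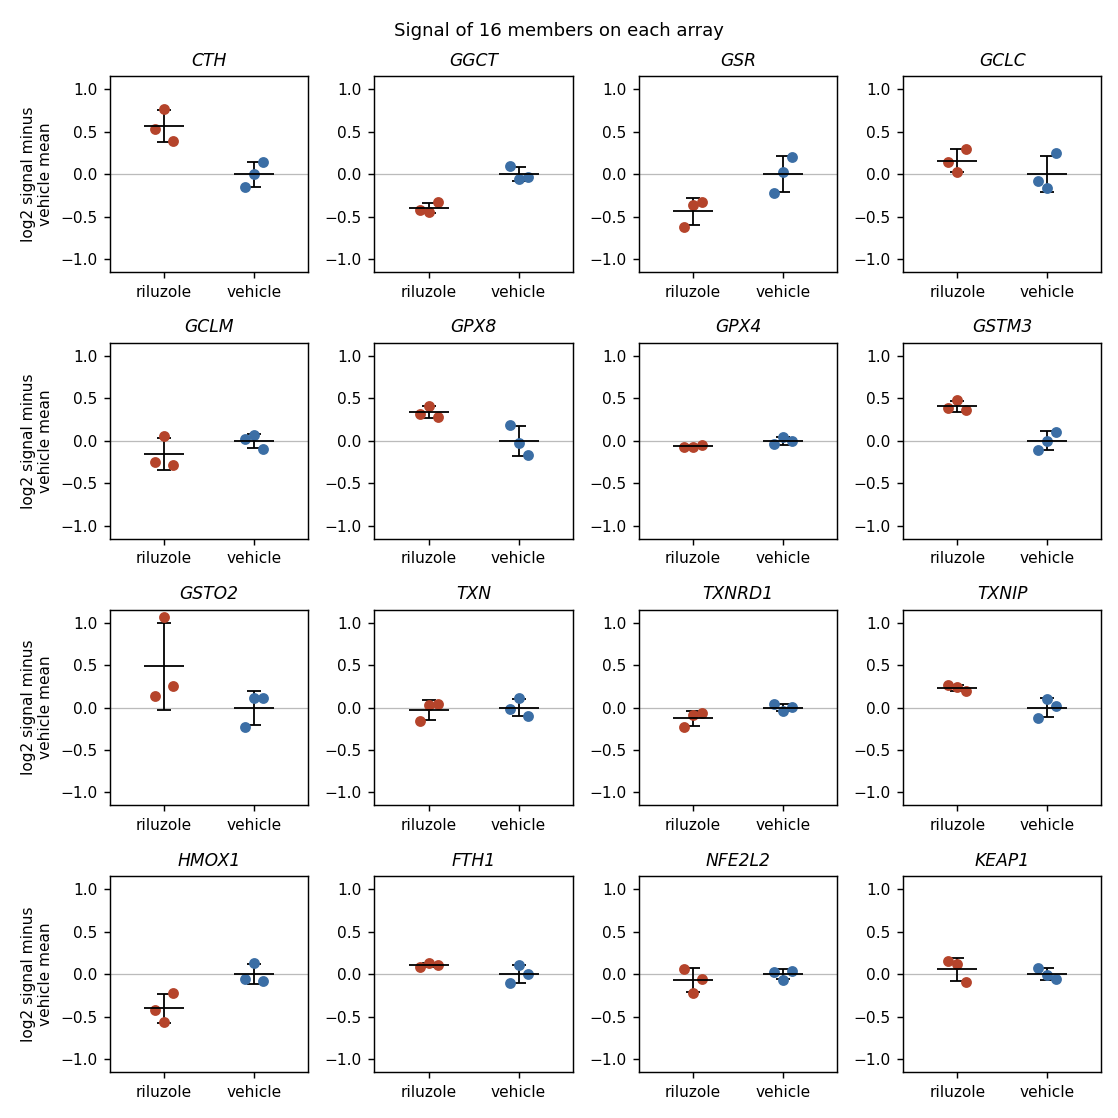
Log2 signal of 16 members on each array, as a difference from the mean of the vehicle arrays, with riluzole on the left and vehicle on the right of each panel. Points are single arrays, and horizontal marks with bars are mean ± SD (n = 3). CTH, GPX8 and GSTM3 lie above and GGCT, GSR and HMOX1 below the vehicle arrays, by 0.34 to 0.56 and by 0.40 to 0.44 on average, and GSTO2 rests on 1 high array.

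Of the 6 glutathione peroxidases, 5 were tested and 0 passed. GPX8, a peroxidase of the endoplasmic reticulum, was at 9.83, 9.93 and 9.79 with riluzole and at 9.70, 9.49 and 9.35 with vehicle. The groups did not overlap, though vehicle array 1 lay close to the lowest riluzole array, and the difference was 1.26-fold (95% interval 1.05 to 1.53, adjusted p = 0.209). GPX4, which reduces lipid peroxides in membranes and so opposes ferroptosis, was at 14.46, 14.46 and 14.48 with riluzole and at 14.48, 14.57 and 14.52 with vehicle. Its groups were just apart and its log2 fold change was -0.061 (-0.28 to 0.15, adjusted p = 0.815), while its other probe gave 0.075. GPX1, the abundant cytosolic peroxidase, GPX3, the secreted one, and GPX7, another of the endoplasmic reticulum, had log2 fold changes of 0.15, 0.18 and -0.15. GPX2, an enzyme of the gut epithelium, was detected on 0 arrays, with a raw signal of 115 ± 1.95 with riluzole and 115 ± 7.75 with vehicle (SD, n = 3 each).

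Among the 14 glutathione transferases, which join glutathione to electrophiles, 13 were tested and 0 passed, with 8 positive and 5 negative values. GSTM3, a mu-class transferase, was at 9.61, 9.70 and 9.58 with riluzole and at 9.11, 9.23 and 9.33 with vehicle. All riluzole arrays were above all vehicle arrays, and the difference was 1.33-fold (95% interval 1.12 to 1.57, adjusted p = 0.113). The mu-class relatives next to it in the genome had other values: the log2 fold change was 0.033 for GSTM1, -0.018 for GSTM2 and -0.13 for GSTM4, a contrast that was not tested. These genes are close in sequence, and GSTM1 and GSTM4 each had detected probes of opposite sign, so their values are uncertain. GSTO2, an omega-class transferase, was at 5.78, 6.72 and 5.91 with riluzole and at 5.42, 5.77 and 5.77 with vehicle, near the detection limit and detected on 5 arrays. Riluzole array 2 alone stood well above the rest, and the interval of the GSTO2 fold ran from 0.957 to 2.05 (adjusted p = 0.365). Its log2 fold change of 0.49 was 0.19 without that array and 0.22 without background correction.

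The other transferases gave smaller values. GSTP1, the pi-class enzyme often abundant in tumour cells, was higher in each riluzole array than in any vehicle array, with a log2 fold change of 0.22 (95% interval -0.039 to 0.47, adjusted p = 0.386). GSTO1 had 0.0047 and -0.0029 on its 2 probes. The membrane-bound MGST1, MGST2 and MGST3 had log2 fold changes of 0.032, -0.062 and -0.072, and GSTA4, GSTK1 and GSTZ1 had 0.079, -0.037 and 0.12. GSTT1, the theta-class gene that is deleted in many human genomes, was detected on 0 arrays (raw signal 111 ± 5.99 with riluzole and 116 ± 16.8 with vehicle).

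In the thioredoxin system all 5 genes were tested and 0 passed. TXN, thioredoxin itself, was at 15.43, 15.62 and 15.64 with riluzole and at 15.58, 15.70 and 15.50 with vehicle, groups that overlapped in part (log2 fold change -0.027, 95% interval -0.28 to 0.23, adjusted p = 0.946). Its brightest probe read 41177 to 51565 raw units with riluzole and 44322 to 54968 with vehicle, against array maxima of 59870 to 65958, so a difference near the top of the scale may be compressed. The cytosolic reductase TXNRD1, a selenoprotein that recharges thioredoxin with NADPH, was at 12.46, 12.60 and 12.62 with riluzole and at 12.73, 12.64 and 12.69 with vehicle. Each riluzole array was below each vehicle array, by a narrow margin, and the log2 fold change was -0.13 (-0.36 to 0.10, adjusted p = 0.591). TXNIP, an arrestin-like protein that binds and inhibits thioredoxin, was at 12.76, 12.74 and 12.69 with riluzole and at 12.37, 12.60 and 12.52 with vehicle. Its riluzole arrays were all above its vehicle arrays, and the difference of 1.18-fold (0.997 to 1.39) did not pass (adjusted p = 0.316). For the mitochondrial pair the log2 fold change was 0.36 for TXN2 (-0.063 to 0.77, overlapping groups) and 0.080 for TXNRD2.

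The 6 peroxiredoxins and sulfiredoxin, the enzyme SRXN1 that repairs over-oxidised peroxiredoxins, gave 0 of 7 past the threshold, and the groups overlapped in all 7. Their log2 fold changes ran from -0.19 (PRDX2, a cytosolic form) to 0.17 (PRDX5, found in several organelles). PRDX1 had -0.12, the mitochondrial PRDX3 0.018, PRDX4 of the endoplasmic reticulum -0.0094, PRDX6 0.13 and SRXN1 0.012. The 4 glutaredoxins, which remove glutathione from proteins or carry iron-sulfur clusters, lay between -0.033 (GLRX) and 0.10 (GLRX2), although the second detected GLRX2 probe gave -0.30. GLRX5 had 0.084. GLRX3 had 0.029, while the kept probe under the older GLRX3 name, TXNL2, had the opposite sign at -0.18 (adjusted p = 0.481 over probes). SOD1, the cytosolic superoxide dismutase, and CAT, peroxisomal catalase, had log2 fold changes of 0.035 (95% interval -0.29 to 0.36) and -0.073 (-0.33 to 0.18).

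**Figure D3:**
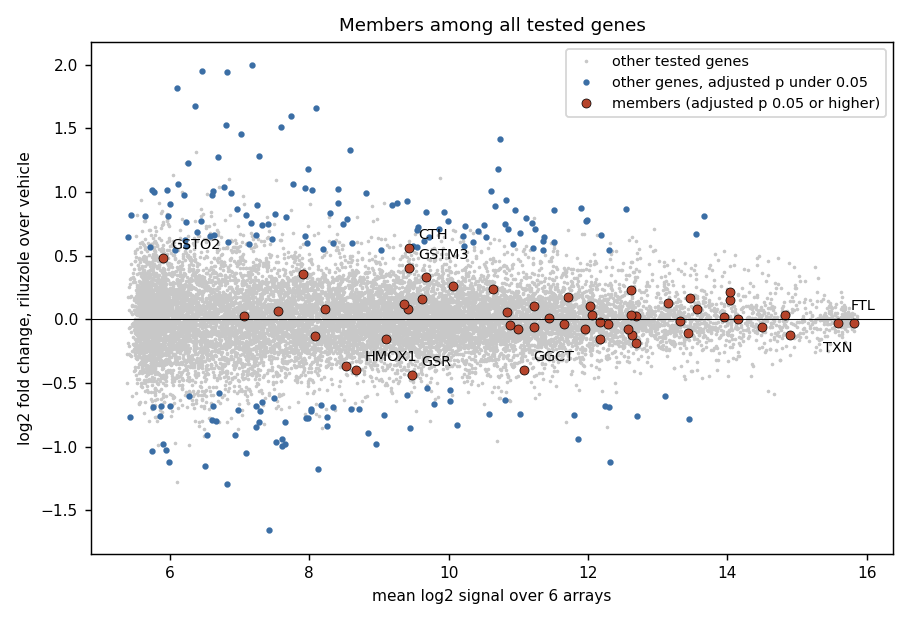
Log2 fold change (riluzole over vehicle, vertical axis) against the mean log2 signal over the 6 arrays (horizontal axis). Red points are the 53 tested members, none past the threshold. Blue points are the 176 genes with an adjusted p under 0.05, and grey points are the other tested genes. The members lie within -0.44 and 0.56, inside the cloud of genes of like signal.

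Of the 6 heme and iron genes 0 passed. HMOX1, the inducible heme oxygenase and a classic NRF2 target, was at 8.45, 8.30 and 8.64 with riluzole and at 8.81, 9.00 and 8.78 with vehicle. Every riluzole array was below every vehicle array, and the level was 1.32-fold lower (95% interval 1.08 to 1.61, adjusted p = 0.168). HMOX2, the constitutive form, had a log2 fold change of -0.37 (-0.77 to 0.031) with overlapping groups. BLVRB, a biliverdin reductase that acts after heme oxygenase, was 1.20-fold higher with non-overlapping groups (1.00 to 1.44, adjusted p = 0.302). FTH1, the ferritin heavy chain that stores iron, was at 12.06, 12.10 and 12.08 with riluzole and at 11.86, 12.08 and 11.97 with vehicle. Its groups overlapped through vehicle array 2 (log2 fold change 0.11, -0.13 to 0.34, adjusted p = 0.666). The light chain FTL had -0.028 (-0.24 to 0.19), from a probe that read 54551 to 58580 raw units with riluzole and 54611 to 63168 with vehicle, close to the top of the scale. TFRC, the transferrin receptor of iron uptake, had -0.11 (-0.34 to 0.12). Ferritin and peroxiredoxin genes have processed pseudogenes, and probes may not tell them apart.

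None of the 4 regulators passed. NFE2L2 was at 12.05, 11.77 and 11.94 with riluzole and at 12.02, 11.93 and 12.03 with vehicle, with the vehicle arrays inside the riluzole range and a log2 fold change of -0.073 (95% interval -0.32 to 0.18, adjusted p = 0.814). KEAP1 was at 10.95, 10.92 and 10.70 with riluzole and at 10.87, 10.79 and 10.74 with vehicle, likewise overlapping (0.057, -0.19 to 0.31, adjusted p = 0.855). NRF2 is controlled mainly through its protein, which these arrays do not measure. NFE2L1, a related factor that drives proteasome genes, was 1.18-fold higher with non-overlapping groups (1.00 to 1.39, adjusted p = 0.304). OSGIN1, an NRF2-responsive growth inhibitor, had a log2 fold change of 0.068 on the probe under that symbol (mean raw signal 283 with riluzole and 279 with vehicle). A brighter probe under its older name OKL38 (1355 with riluzole and 1315 with vehicle) gave 0.038.

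Probes of the same gene offered a check within the arrays. Of the 57 genes, 22 had more than 1 detected probe under their listed symbol, and in 12 of them all probes had the same sign. Probes under older names were not counted, which leaves out the pairs of GLRX3 (opposite signs) and OSGIN1 (same sign). The probes of CTH (0.56 to 0.62), GGCT (-0.40 to -0.34) and GSR (-0.47 to -0.44) lay within 0.06 of each other. In the 10 genes whose probes differed in sign, GLRX2, GSTZ1, GSTM4, GSTM1, MGST1, KEAP1, GPX4, PRDX3, TXN and GSTO1, the brightest probe had a log2 fold change of at most 0.13 in size. Tested by probe, 0 of 80 member probes passed (lowest limma adjusted p = 0.112).

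**Figure D4:**
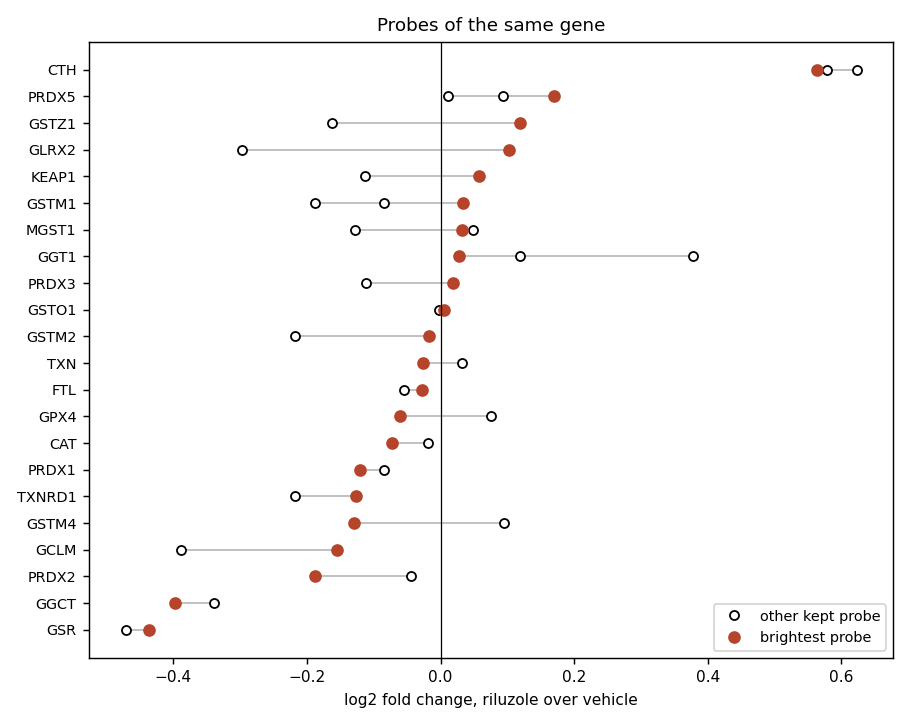
Log2 fold change (riluzole over vehicle, horizontal axis) of each detected probe for the 22 members with more than 1 under their listed symbol, ordered by the brightest probe (red). Open points are the other probes. The probes of CTH, GGCT and GSR lie close together away from 0, and in 10 genes the probes fall on both sides of 0.

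A further 64 genes of the same pathways, not on the list of 57, were read beside it, and 50 were tested. Again 0 passed in the limma fit, 8 had an unadjusted p under 0.05 (3 higher and 5 lower, beside 16.3% of all tested genes), and the median log2 fold change was 0.015. The lowest adjusted p, 0.0558, belonged to ABCC3, an exporter of glutathione and glucuronide conjugates, at 11.12, 10.97 and 10.99 with riluzole and at 10.26, 10.34 and 10.61 with vehicle. The groups did not overlap (1.54-fold, 95% interval 1.27 to 1.87), but its second, dim probe gave a log2 fold change of 0.24 beside 0.62. ME1, malic enzyme and a cytosolic source of NADPH, was at 9.97, 9.94 and 9.99 with riluzole and at 10.23, 10.60 and 10.44 with vehicle. It was 1.37-fold lower in non-overlapping groups (1.13 to 1.66, adjusted p = 0.116).

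Another 2 genes named by their p handle iron. SLC40A1, the iron exporter ferroportin, was at 6.43, 6.86 and 6.91 with riluzole and at 7.27, 7.51 and 7.10 with vehicle. The groups did not overlap and the level was 1.47-fold lower with riluzole (95% interval 1.13 to 1.91, adjusted p = 0.149), with a second probe at -0.58 beside -0.56. The signal was dim, and without background correction the SLC40A1 value was -0.32. IREB2, an iron-sensing regulator of ferritin and transferrin receptor translation and stability, was at 7.73, 7.66 and 7.73 with riluzole and at 7.83, 8.15 and 8.24 with vehicle, again without overlap, and was 1.29-fold lower (1.05 to 1.58, adjusted p = 0.201). SLC7A11, the light chain of the cystine importer, was detected on 3 riluzole arrays and 1 vehicle array, at 5.92, 6.20 and 6.04 with riluzole and at 6.03, 4.88 and 5.26 with vehicle, so that vehicle array 1 lay among the riluzole arrays. The fitted SLC7A11 difference, 1.58-fold (1.05 to 2.39, adjusted p = 0.254), sets those riluzole arrays against mostly undetected vehicle signals, and its log2 value of 0.66 was 0.35 without background correction. The remaining 3 genes with an unadjusted p under 0.05, named after their values were seen, were SLC3A2, the heavy chain of that importer (log2 fold change 0.33, adjusted p = 0.217), IDH1, a cytosolic NADPH-producing dehydrogenase (-0.30, adjusted p = 0.246), and TKT, a transketolase (-0.26, adjusted p = 0.244). A second detected IDH1 probe gave only -0.066, and the other SLC3A2 probes gave 0.22 and 0.23. CHAC1, a glutathione-degrading enzyme and a stress-induced gene, was detected on 0 arrays (raw signal 114 ± 13.5 with riluzole and 103 ± 6.62 with vehicle). SESN2, a stress-induced sestrin, was detected on 1 riluzole array and 0 vehicle arrays (139 ± 7.32 with riluzole and 129 ± 8.30 with vehicle). NQO1, a quinone reductase and common readout of NRF2 activity, had a log2 fold change of 0.069 (-0.16 to 0.30, adjusted p = 0.806). Its second, dimmer probe gave -0.15.

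The absence of calls depended in part on the fit. With no background correction, and separately with a robust variance that follows the intensity, CTH (adjusted p = 0.0173 and 0.0133), GGCT (0.0307 and 0.0215) and GSTM3 (0.0448 and 0.0436) passed, and CTH passed (0.0433) when detection was asked for at p under 0.01 on all 6 arrays. Over all genes, 559 of 14889, 661 of 14889 and 360 of 11872 tested passed in these 3 settings, so more genes were called across the whole array too. In the same 3 settings ABCC3 of the further genes also passed (adjusted p = 0.00451, 0.00221 and 0.0210), and ME1 passed in the first 2 (0.0300 and 0.0224). No member passed in the other 6 settings or in the 6 fits that each left out 1 array. CTH, GGCT and GSTM3 kept their direction in all 15 alternatives, where their adjusted p ran from 0.0133 to 0.207, from 0.0215 to 0.233 and from 0.0436 to 0.248. Leaving out 1 array cannot turn the direction of groups that are apart.

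**Figure D5:**
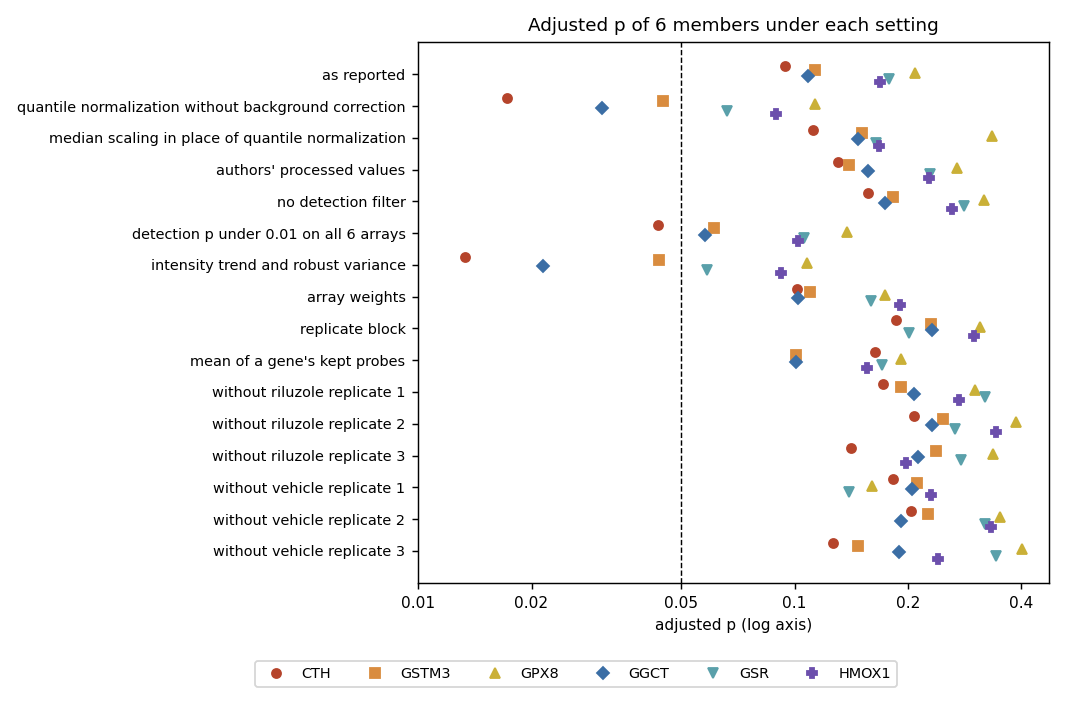
Adjusted p (horizontal log axis) of CTH, GSTM3, GPX8, GGCT, GSR and HMOX1 as reported and under each of the 15 alternatives (rows). The dashed line is 0.05. CTH lies left of it in 3 rows, GGCT and GSTM3 in 2, and GPX8, GSR and HMOX1 in 0.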

How the data were processed

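Total RNA was taken with an RNeasy Plus kit (QIAGEN) and amplified to biotinylated cRNA, per the labels' protocols. The sources used here do not name the array type or scanner software. The authors deposited, per the file headers, an average signal intensity and a detection p-value for each probe, with 770 negative controls among the control rows. A table of processed intensity values, deposited without a stated method, served as an alternative with values under 16 set to 16.

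The neqc steps of limma 3.58.1 (R 4.3.3) estimated background by normexp through the detection p-values, added 16, normalized by quantiles and took log2, after 979 control rows were left out. Probes with detection p under 0.05 on at least 3 of 6 arrays were kept, 20788 in all, and the brightest kept probe stood for its gene. Symbols were updated through RefSeq names, except that members were matched by the array's symbol. The model (lmFit, eBayes) held the treatment group alone. It was run on simulated data with planted changes larger than any seen in a member, so its power for changes of the members' size was not tested. The p-values were adjusted over all 14889 genes. The number of arrays limits the precision.

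Per-array values are given for members with non-overlapping groups and a log2 fold change of at least 0.3 in size and for GCLC, GCLM, GPX4, TXN, TXNRD1, TXNIP, HMOX1, FTH1, NFE2L2 and KEAP1. Of the 64 further pathway genes, the 4 with the smallest p and SLC7A11, CHAC1, NQO1 and SESN2 are named, and 1 further gene of that rule is not reported here. The members and lists were chosen with earlier results of these data known.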

Additional observations from a re-analysis of the deposited data

How the results depend on the processing

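The count of members past the threshold, 0, was 3 with quantile normalization and no background correction, 3 with a robust variance following the intensity, 1 with detection p under 0.01 on all 6 arrays, and 0 with median scaling, the authors' processed values, no detection filter, array weights, the mean of a gene's probes and each fit without 1 array (lowest and highest 0). Over all genes the count of 176 was 559, 661 and 360 in those first 3 settings, 94 with the authors' processed values, 70 without a detection filter and 21 to 41 with an array left out. The members' median log2 fold change of 0.028 was -0.0069 with median scaling, -0.0094 with the mean of a gene's probes, and -0.00035 to 0.035 with an array left out, so it had no settled sign. The median of all tested genes, 0.00075 as reported, was -0.016 with median scaling and -0.0026 with the mean of a gene's probes. The cause of these shifts was not tested. With the replicate number as a replicate block 0 members and 22 genes passed. The labels do not say whether same-numbered arrays were handled together. Deviations of same-numbered arrays from their group means correlated at -0.146, -0.105 and 0.0012, and 0 of 6 arrays correlated best with its own number. So few arrays cannot settle whether they were paired. Of the 53 tested members 31 kept their sign in every alternative, and the 22 others changed it in 51 of 794 values, none of them past the threshold. Signal over background limits GSTO2, SLC40A1 and SLC7A11, and signals near the top of the scale limit TXN and FTL.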
